A study of Sus scrofa with 8 samples.

Results

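Collagens are the structural proteins of the extracellular matrix, and 43 of the 18103 genes measured in pig liver were collagen genes. They were taken as every gene whose symbol consists of COL, a number, the letter A and a second number. These 43 comprised 11 fibrillar collagens, 6 basement membrane collagens of type IV and 26 other collagens. The gene for the α1 chain of type VI collagen carries a locus symbol in this table, so it was not among the 43, and its values are given with the other type VI chains. Hepatic RNA of male Landrace x Large White pigs was measured by RNAseq in 8 libraries, each a pool of equal amounts of RNA from 2 pigs. In the 4 pools labelled Control, named initial here, the pigs were 4 months old, healthy and on a control diet, and liver was taken by biopsy. The 4 pools labelled Steatosis came from the same animals at 6 months of age, after 2 months on a diet rich in saturated fat, fructose, cholesterol and cholate and low in choline and methionine, and liver was taken after euthanasia. Age, the way of sampling and the diet changed together, so their parts in any difference between the groups cannot be told apart. SDs and tests describe the spread between pools of 2 pigs, not between single pigs.

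A collagen is made of chains that wind into a rope-like helix in the endoplasmic reticulum, where prolines and lysines are hydroxylated and chaperones hold the chains until they are secreted. Fibrillar collagens (types I, III and V among them) are then trimmed and crosslinked into the fibres that a trichrome stain colours. Type IV collagen forms sheets under epithelia and around vessels, and the remaining types attach to fibrils, form beaded filaments or span membranes. In liver the fibrillar types are made mainly by stellate cells and portal fibroblasts, while type XVIII collagen is also known as a product of hepatocytes.

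Levels are given as FPKM, a unit of fragments that is scaled for transcript length and for the mapped fragments of the library and so allows genes to be set side by side. A gene was tested if 4 or more of the 8 pools reached 0.3 FPKM, which 13175 genes did, 23 of them collagens. Fold changes are on the log2(FPKM + 0.1) scale, steatosis minus initial, from a limma fit over all tested genes with Benjamini-Hochberg adjustment. A call needed both a fold change beyond 1 on this scale and an adjusted p below 0.01, the limits used in the study. Over the tested genes as a whole the median log2 fold change was 0.25, and 78.7% of them had a positive value. This median became -0.01 when libraries were scaled by median ratios. In whole liver RNA, more cells of a type and more RNA per cell cannot be told apart.

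The tissue carried its own markers in every pool. The summed FPKM of 6 hepatocyte markers lay between 55050 and 87050 in the initial pools and between 48480 and 60300 in the steatosis pools. Initial pool 1 stood apart by transcripts of other tissues. The 10 skeletal muscle markers summed to 2820 FPKM there, against 0.84 to 21.1 in the other initial pools and 0.16 to 0.43 in steatosis, where MYH1, MYH7 and TNNT3 were listed at 0 in every pool. The 10 stomach mucosa markers summed to 1535 FPKM in initial pool 1 against 5.81 to 29.2 in the other initial pools and 6.0 to 6.5 in steatosis, where CLDN18, GKN1, GKN2, MUC6 and TFF1 were listed at 0. Smooth muscle markers (7 of 7 in the table, none at 0 in all steatosis pools) reached 141 FPKM in this pool, 17.0 to 52.9 in the other initial pools and 28.7 to 36.3 in steatosis. DES gave 71.6 of the 141 FPKM in initial pool 1. The 6 adipose markers summed to 37.6 FPKM in initial pool 1, 3.97 to 7.0 in the other initial pools and 8.12 to 11.5 in steatosis, where LEP was listed at 0. ADIPOQ alone gave 27.9 FPKM in initial pool 1, and 4 of the 6 were highest there among the initial pools. The collagen sums and counts and the main chains are therefore given with and without initial pool 1, and the part of these tissues in the collagen values was not tested.

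By level, the hepatic collagens were led by COL18A1, followed by COL3A1, COL1A1 and COL1A2. The 43 genes summed to 208 ± 42.5 FPKM (SD, n = 4 pools) in the initial state and 353 ± 101 FPKM in steatosis, with initial pools between 149 and 249 and steatosis pools between 262 and 485. Without initial pool 1 the initial sum was 195 ± 39.8 FPKM. COL18A1 alone took 32.5% to 57.6% of this sum in the initial pools and 31.2% to 53.5% in the steatosis pools. The fibrillar genes took 35.7% ± 7.48 of the sum in the initial state and 40.2% ± 10.2 in steatosis, the basement membrane genes 9.22% ± 1.81 and 8.71% ± 0.710, and the other collagens 55.1% ± 9.18 and 51.1% ± 10.1. With all pools the share of each class moved between the groups by less than 1 SD. Without initial pool 1 the initial shares were 32.8% ± 5.75 for fibrillar, 8.35% ± 0.611 for basement membrane and 58.9% ± 6.36 for other collagens, so that the fibrillar and other shares differed from steatosis by more than the initial SD and less than the steatosis SD. Within a group the fibrillar share ran from 26.8% to 44.5% in the initial pools and from 30.6% to 51.8% in steatosis.

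**Figure D1:**
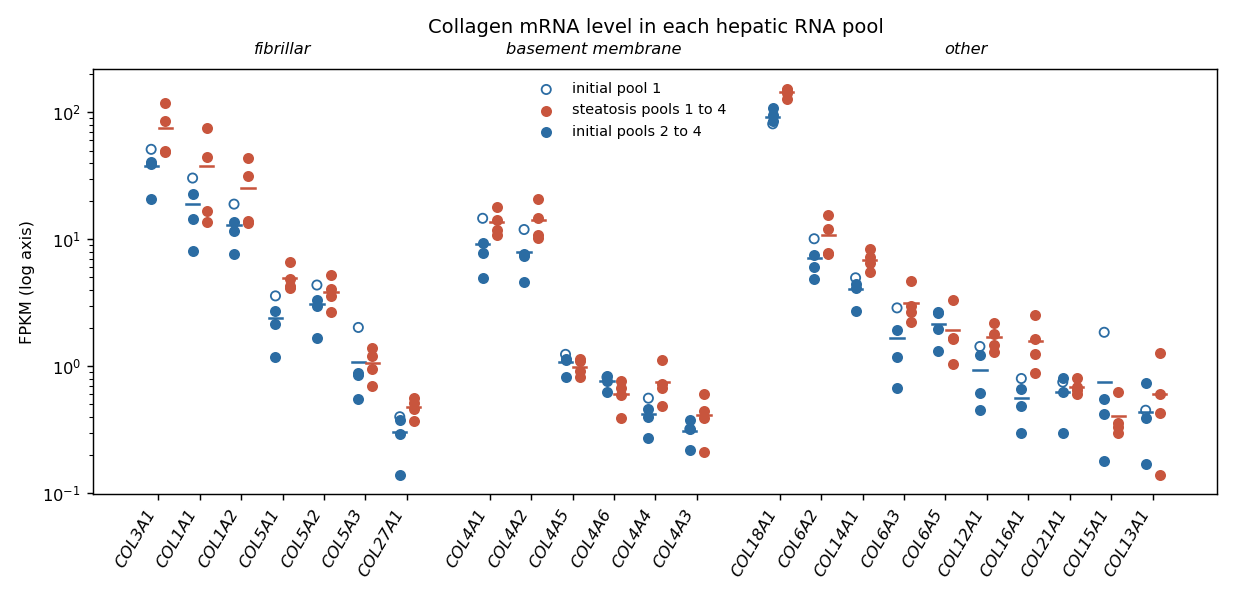
Level of each tested collagen in each RNA pool, in FPKM on a log axis, with genes ordered within class by mean level; open circles are initial pool 1, blue points initial pools 2 to 4, red points the 4 steatosis pools and bars the group means. COL18A1 lay between 81.1 and 108 FPKM in the initial pools and between 128 and 154 FPKM in steatosis without overlap, whereas the steatosis pools of COL1A1 spread from 13.7 to 75.2 FPKM across the initial values.

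Between the groups, 0 of the 23 tested collagens passed both limits, where 6.35% of all tested genes did (792 higher and 44 lower). The limma treat test, which asks for a fold change significantly beyond the limit, also called 0. At an unadjusted p under 0.05 there were 9 of 23 collagens, against 41.9% of all genes. At an adjusted p under 0.05 and any fold, 4 of 23 collagens (COL5A1, COL14A1, COL16A1 and COL18A1) were higher in steatosis, against 26.7% of all tested genes, and 0 were lower, against 2.28%. The same 4 genes had no overlap between groups, against 29.6% of all genes without overlap in that direction. Fold changes were positive for 19 collagens and negative for 4, and their median was 0.64. In this fit the collagen genes were thus called no more often than all tested genes, although their median fold change lay above that of all genes.

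Leaving out initial pool 1 raised these counts. Then 1 of 23 collagens (COL5A1) passed both limits, against 6.33% of 13066 genes, and 9 of 23 were higher at an adjusted p under 0.05, against 23.7%. These 9 were COL3A1, COL4A1, COL4A2, COL5A1, COL6A3, COL12A1, COL14A1, COL16A1 and COL18A1. At an unadjusted p under 0.05 there were 13, against 40.3%, and 20 fold changes were positive, against 78.9%. Groups did not overlap for 11 of 23, all higher in steatosis, against 34.0% of all genes that were higher and 3.49% that were lower, and the median collagen fold change was 0.75. By class, the counts at an adjusted p under 0.05 were then 2 of 7 fibrillar, 2 of 6 basement membrane and 5 of 10 other collagens, with medians of 1.07, 0.55 and 0.67. Leaving out steatosis pool 4 instead left 2 collagens at an adjusted p under 0.05 (COL16A1 and COL18A1) and a median of 0.49, and leaving out initial pool 4 gave a median of 0.41.

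**Figure D2:**
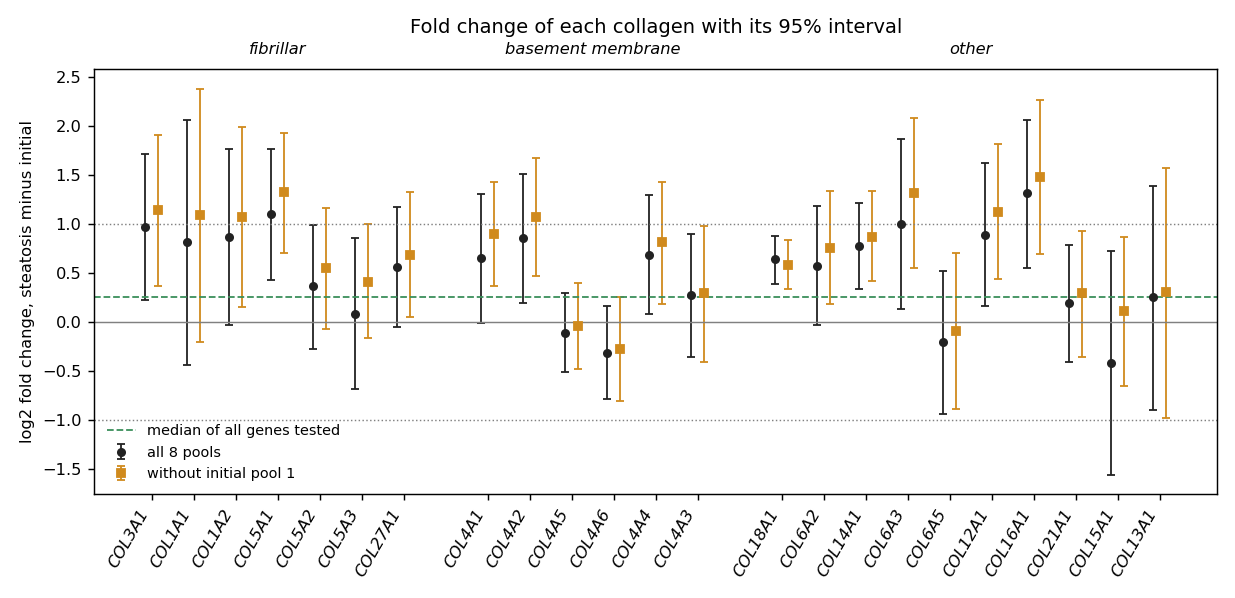
Log2 fold change (steatosis minus initial, on log2(FPKM + 0.1)) of each tested collagen with its 95% confidence interval, with all 8 pools (black circles) and without initial pool 1 (orange squares); the green line is the median of all tested genes and dotted lines mark the fold limit. COL18A1 had the narrowest interval, from 0.39 to 0.88, and the interval of COL1A1, from -0.44 to 2.06, spanned 0.

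Of the 11 fibrillar collagens, 7 were tested and all 7 had positive fold changes, from 0.08 for COL5A3 to 1.1 for COL5A1, with a median of 0.81. None of the 7 passed both limits and 1 (COL5A1) had an adjusted p under 0.05. COL3A1, the only chain of type III collagen, which is laid down beside type I in soft organs, was the most abundant. It measured 51.1, 40.6, 39.0 and 20.6 FPKM in initial pools 1 to 4 and 85.4, 49.4, 49.1 and 118 FPKM in steatosis pools 1 to 4. Only initial pool 1 reached into the range of the steatosis pools. The estimated log2 difference was 0.97 (SE 0.33, adjusted p = 0.0545), and without initial pool 1 it was 1.14 (SE 0.34, adjusted p = 0.0385).

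Type I collagen, the main fibre former of scars, is built from COL1A1 and COL1A2 chains. COL1A1 was at 30.3, 22.6, 14.5 and 8.06 FPKM in initial pools 1 to 4 and at 44.2, 13.7, 16.7 and 75.2 FPKM in steatosis pools 1 to 4. Steatosis pools 1 and 4 were above all initial pools, while steatosis pools 2 and 3 lay within the initial range. Steatosis minus initial came to 0.81 on the log2 scale (SE 0.56, adjusted p = 0.301; exact permutation p = 0.314 on the mean FPKM, two-sided), and without initial pool 1 to 1.09 (SE 0.57, adjusted p = 0.186). The group means of 18.9 ± 9.68 and 37.5 ± 28.7 FPKM (SD, n = 4 pools) had a ratio of 1.98, and the difference did not exceed the spread between pools.

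COL1A2 had the same arrangement of pools, with 18.9, 13.6, 11.7 and 7.59 FPKM in the initial state and 31.3, 13.3, 13.9 and 43.6 FPKM in steatosis. The groups differed by 0.86 on the log2 scale (SE 0.40, adjusted p = 0.131), and by 1.07 (SE 0.41, adjusted p = 0.0818) without initial pool 1. The ratio of COL1A1 to COL1A2, a measure of whether both chains move together, was 1.39 ± 0.290 in the initial pools and 1.34 ± 0.299 in steatosis, a difference well inside the SD.

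Type V collagen sits in the core of type I fibrils and governs their diameter. COL5A1, its main chain, was at 3.58, 2.73, 2.14 and 1.18 FPKM in initial pools 1 to 4 and at 4.89, 4.16, 4.27 and 6.63 FPKM in steatosis pools 1 to 4. Every steatosis pool lay above every initial pool, the lowest of them by a small step over initial pool 1. The estimated log2 difference was 1.1 (SE 0.30, adjusted p = 0.0217), so the fold limit was passed and the adjusted p limit of 0.01 was not. Without initial pool 1 it was 1.32 (SE 0.27, adjusted p = 0.00823), past both limits. The partner chains did not show the same separation: COL5A2 differed by 0.36 (SE 0.28, adjusted p = 0.369) and COL5A3, the lesser chain, by 0.08 (SE 0.35, adjusted p = 0.875). Without initial pool 1 they differed by 0.55 (SE 0.27, adjusted p = 0.167) and 0.41 (SE 0.26, adjusted p = 0.261). COL5A3 was at 2.02 FPKM in initial pool 1 and between 0.55 and 0.89 FPKM in the other initial pools. A test of the difference between these chains was not made. COL3A1 and COL5A2 are neighbours on chromosome 15 of Sscrofa11.1 (93556914 to 93595678 and 93611856 to 93981131), 16177 bases apart.

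COL27A1, a minor fibrillar collagen of cartilage, was low, between 0.14 and 0.40 FPKM in the initial pools and between 0.37 and 0.56 FPKM in steatosis (log2 fold change 0.56, adjusted p = 0.149). The remaining 4 fibrillar genes, COL2A1, COL11A1, COL11A2 and COL24A1, which belong mostly to cartilage and other connective tissue, lay between 0 and 0.16 FPKM in every pool and were not tested. COL2A1, the defining collagen of cartilage, was listed at 0 in 7 of the 8 pools.

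**Figure D3:**
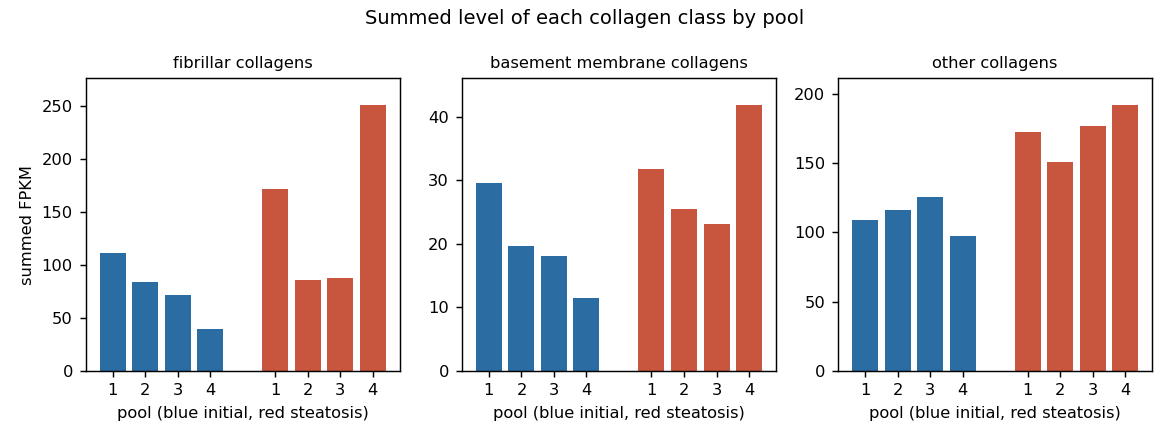
Summed FPKM of the fibrillar, basement membrane and other collagens in each pool (linear axes from 0, blue initial pools 1 to 4, red steatosis pools 1 to 4). The fibrillar sum ran from 39.8 to 111 FPKM in the initial pools and from 85.9 to 251 FPKM in steatosis, with steatosis pools 1 and 4 high and pools 2 and 3 inside the initial range, while the sums of the other collagens did not overlap; without COL18A1 these ran from 11.8 to 27.9 FPKM in the initial pools and from 22.8 to 40.7 FPKM in steatosis and did overlap.

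All 6 basement membrane collagens were tested, and 0 passed both limits or an adjusted p of 0.05. Their median log2 fold change was 0.46, with 4 positive and 2 negative values. COL4A1 and COL4A2 form the widespread type IV network of vessels and sinusoids and made up most of the class. COL4A1 was at 14.6, 9.33, 7.86 and 4.96 FPKM in initial pools 1 to 4 and at 14.3, 11.8, 10.7 and 18.0 FPKM in steatosis pools 1 to 4. Initial pool 1 lay among the steatosis pools and the other initial pools lay below them. Steatosis minus initial came to 0.65 on the log2 scale (SE 0.29, adjusted p = 0.122), and 0.90 (SE 0.24, adjusted p = 0.0226) without initial pool 1.

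COL4A2 was at 11.9, 7.71, 7.40 and 4.57 FPKM in initial pools 1 to 4 and at 14.7, 10.8, 10.2 and 20.8 FPKM in steatosis pools 1 to 4. Again only initial pool 1 overlapped with steatosis. The groups differed by 0.85 on the log2 scale (SE 0.30, adjusted p = 0.0562), and 1.07 (SE 0.27, adjusted p = 0.0186) without initial pool 1. The genes share a start region on chromosome 11, where RefSeq places COL4A1 at 76858332 to 76997409 and COL4A2 at 76996885 to 77161617 (Sscrofa11.1), so that 525 bases overlap. Whether the counting used strand is not given in the sources used here, and without strand reads in that overlap could be assigned to either gene.

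The other type IV chains were low. COL4A3 and COL4A4, which with COL4A5 form the network of the kidney filter and overlap by 663 bases on chromosome 15, lay between 0.22 and 0.38 FPKM and between 0.27 and 0.56 FPKM in the initial pools. On the log2 scale they differed by 0.27 (SE 0.28, adjusted p = 0.493) and 0.68 (SE 0.27, adjusted p = 0.0819). COL4A5, on the X chromosome and next in level to COL4A1 and COL4A2, was at 1.24, 1.14, 1.12 and 0.82 FPKM in initial pools 1 to 4 and at 1.14, 1.09, 0.82 and 0.92 FPKM in steatosis pools 1 to 4. These ranges were almost the same, and the log2 fold change was -0.11 (SE 0.18, 95% interval -0.51 to 0.29, adjusted p = 0.680). COL4A6, its neighbour on the X chromosome, had -0.32 (SE 0.21, adjusted p = 0.288).

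Among the 26 other collagens, 10 were tested, 8 with positive and 2 with negative fold changes and a median of 0.61. None of the 10 passed both limits, and 3 (COL14A1, COL16A1 and COL18A1) had an adjusted p under 0.05. COL18A1 encodes type XVIII collagen, a heparan sulfate proteoglycan of basement membranes whose end fragment is endostatin, and it had the highest level of all collagens in each of the 8 pools. It was at 81.1, 95.2, 108 and 85.6 FPKM in initial pools 1 to 4 and at 142, 128, 154 and 151 FPKM in steatosis pools 1 to 4. The lowest steatosis pool was above the highest initial pool, and neither initial pool 1 nor steatosis pool 4 stood out. Group means were 92.5 ± 11.9 and 144 ± 11.8 FPKM (SD, n = 4 pools), a ratio of 1.55.

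The log2 fold change of COL18A1 was 0.64 (SE 0.11, 95% interval 0.39 to 0.88, adjusted p = 0.00268), so it passed the adjusted p limit and not the fold limit. It was the only collagen of the 23 with an adjusted p under 0.01, which 12.9% of all tested genes reached in that direction. The exact permutation p of 0.0286 is the smallest that 4 pools against 4 can give. Without initial pool 1 the fold change was 0.58 (SE 0.11, adjusted p = 0.00590). Without steatosis pool 3 or 4 the adjusted p was 0.0107 and 0.0111, just above the limit. Under median ratio scaling, where the median of all genes is -0.01, it was 0.36 (SE 0.11, adjusted p = 0.0416). COL18A1 lies on chromosome 13 at 207907835 to 207984082 (Sscrofa11.1).

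COL15A1, the related type XV collagen of vessel and muscle basement membranes, did not share this course. It was at 1.85, 0.55, 0.42 and 0.18 FPKM in initial pools 1 to 4 and at 0.36, 0.33, 0.30 and 0.63 FPKM in steatosis pools 1 to 4. Initial pool 1, which carried the muscle transcripts, was by far the highest. The estimated log2 difference was -0.42 (SE 0.51, adjusted p = 0.562), and without initial pool 1 it turned to 0.11 (SE 0.34, adjusted p = 0.838).

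Fibril-associated collagens lie on the surface of type I fibrils. COL14A1, which regulates fibril growth, was at 4.97, 4.42, 4.12 and 2.71 FPKM in initial pools 1 to 4 and at 7.21, 6.45, 5.50 and 8.42 FPKM in steatosis pools 1 to 4. All 4 steatosis pools were above all initial pools. Steatosis minus initial came to 0.77 on the log2 scale (SE 0.20, adjusted p = 0.0176), and 0.87 (SE 0.20, adjusted p = 0.0130) without initial pool 1.

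COL16A1, a low fibril-associated collagen, had the largest log2 fold change of the 23. It was at 0.80, 0.66, 0.49 and 0.30 FPKM in initial pools 1 to 4 and at 1.65, 0.88, 1.24 and 2.53 FPKM in the steatosis pools, again without overlap. The groups differed by 1.31 on the log2 scale (SE 0.34, adjusted p = 0.0181), and by 1.48 (SE 0.35, adjusted p = 0.0144) without initial pool 1. COL12A1, found on fibrils of dense connective tissue, had 0.89 (SE 0.33, adjusted p = 0.0658) and overlapped through initial pool 1. COL21A1 had 0.19 (SE 0.27, adjusted p = 0.631).

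Type VI collagen forms beaded filaments around cells from an α1, an α2 and a further chain. COL6A2 was at 10.1, 7.56, 6.02 and 4.89 FPKM in initial pools 1 to 4 and at 12, 7.72, 7.84 and 15.5 FPKM in steatosis pools 1 to 4 (log2 fold change 0.57, SE 0.27, adjusted p = 0.136, and 0.75, SE 0.26, adjusted p = 0.0569 without initial pool 1). COL6A3 was at 2.88, 1.92, 1.18 and 0.67 FPKM in initial pools 1 to 4 and at 2.65, 2.98, 2.24 and 4.71 FPKM in steatosis pools 1 to 4 (1.0, SE 0.39, adjusted p = 0.0783, and 1.31, SE 0.34, adjusted p = 0.0211 without initial pool 1). For both chains, initial pool 1 was the only initial pool within the steatosis range.

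The locus described in the table as the α1 chain of type VI collagen (LOC100623720) was at 16, 10.9, 8.85 and 5.34 FPKM in initial pools 1 to 4 and at 14.8, 9.84, 10.3 and 20.5 FPKM in steatosis pools 1 to 4. These ranges overlapped widely, and the log2 fold change was 0.47 (SE 0.33, adjusted p = 0.305). COL6A5, an alternative to the COL6A3 chain, had -0.21 (SE 0.33, adjusted p = 0.660). The transmembrane collagen COL13A1 varied between pools of a group, from 0.17 to 0.74 FPKM in the initial pools and from 0.14 to 1.26 FPKM in steatosis, and the groups differed by 0.25 (SE 0.51, adjusted p = 0.742).

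The 16 other collagens below the filter included 2 that reached 0.3 FPKM in steatosis pools alone. Both are shown because they were higher there, so their p values count as a description. COL8A1, a short-chain collagen of vessel walls, was at 0.27, 0.18, 0.14 and 0.08 FPKM in initial pools 1 to 4 and at 0.79, 0.26, 0.52 and 0.73 FPKM in steatosis pools 1 to 4. Steatosis pool 2 lay below initial pool 1, and the exact permutation p was 0.0571. In the fit without the filter on low values, steatosis minus initial came to 1.30 (SE 0.33, adjusted p = 0.0254).

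COL9A3, a chain of the cartilage collagen type IX, was at 0.26, 0.27, 0.24 and 0.22 FPKM in initial pools 1 to 4 and at 0.95, 0.29, 0.30 and 0.84 FPKM in steatosis pools 1 to 4. Its groups did not overlap (exact permutation p = 0.0286), but steatosis pools 2 and 3 were close to the initial pools. In the fit without the filter its adjusted p was 0.119. COL17A1, an anchoring protein of skin and other squamous epithelia, was at 0.70 FPKM in initial pool 1 and between 0 and 0.16 FPKM in all other pools. The remaining 13 genes lay between 0 and 0.30 FPKM in every pool.

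Pools of the same group differed in collagen level, and the differences ran through most of the chains. Of the 23 tested collagens, initial pool 4 was the lowest initial pool for 21 (91.3%, against 51.1% of all tested genes) and initial pool 1 the highest for 18 (78.3%, against 23.3%). In steatosis, pool 4 was the highest for 18 (78.3%, against 26.1%), and pools 1 and 4 were both above pools 2 and 3 for 15 (65.2%, against 23.5%). The collagens share libraries and cell types, so these counts describe 8 pools and not independent genes.

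**Figure D4:**
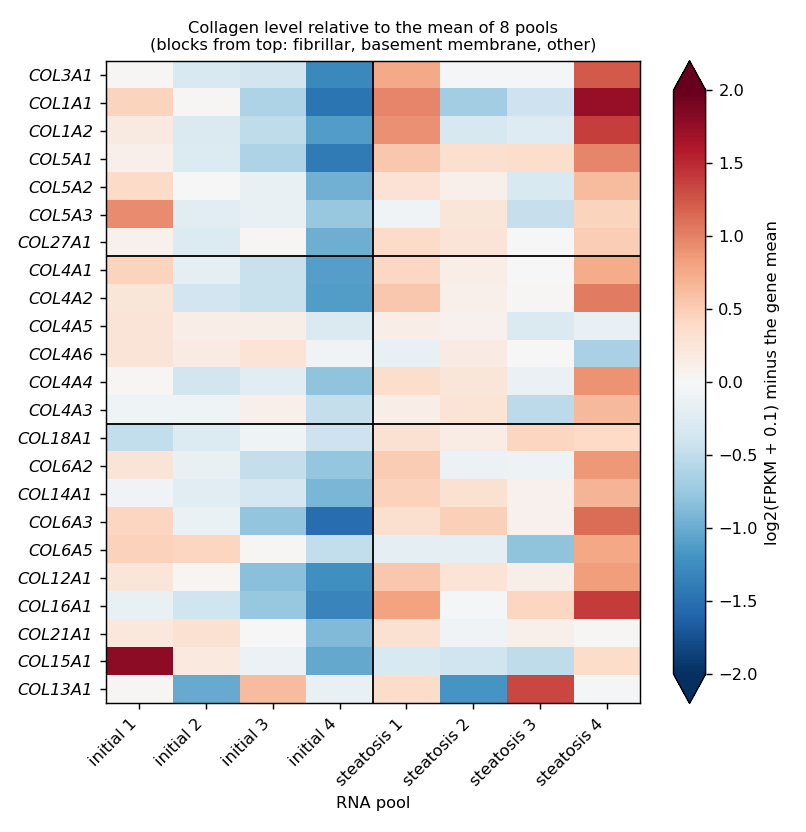
Level of each tested collagen in each pool as log2(FPKM + 0.1) minus the mean of that gene over the 8 pools, with red above and blue below the mean and horizontal lines between the fibrillar, basement membrane and other collagens. Initial pool 4 is mostly blue, lowest of the initial pools for 21 of 23 genes, and steatosis pool 4 is mostly red, highest of the steatosis pools for 18 of 23, while COL18A1 varies little within a group.

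Markers of the cells that make or surround collagen varied between the same pools. The 13 stellate and portal fibroblast markers, none listed at 0 in all steatosis pools, summed to 220, 115, 71.0 and 53.3 FPKM in initial pools 1 to 4 and to 110, 75.7, 93.9 and 140 FPKM in steatosis pools 1 to 4. Of these 13, 7 had steatosis pools 1 and 4 above pools 2 and 3, against 23.5% of all tested genes. Only 1 passed both limits, LRAT, the retinol storage enzyme of stellate cells, at 1.25 on the log2 scale (adjusted p = 0.000773). As 6.01% of all tested genes were called higher, this count is near the background and no result about the list. Cholangiocyte markers (4 of 5 listed in the table, none at 0) summed to 19.9, 7.33, 6.71 and 4.06 FPKM in initial pools 1 to 4 and to 18.6, 7.57, 7.89 and 18.5 FPKM in steatosis. All 4 had steatosis pools 1 and 4 above pools 2 and 3, against 23.5% of all tested genes. Not all members of the stellate list shared the order of its sum. DES, ACTA2 and TAGLN, which muscle also expresses, gave 71.6, 56.0 and 50.3 FPKM of the sum in initial pool 1. That pool was the highest initial pool for 7 of the 13, against 23.3% of all tested genes. LRAT, at 1.47, 2.16, 1.97 and 1.31 FPKM in initial pools 1 to 4 and at 4.21, 4.45, 4.33 and 3.69 FPKM in steatosis pools 1 to 4, had steatosis pool 4 as the lowest of its group. The part of these cells in the collagen values was not tested. Endothelial markers (10 of 10 in the table, none at 0) did not follow that order, with 74.2 to 86.5 FPKM in the initial pools and, in turn, 101, 130, 112 and 106 FPKM in steatosis pools 1 to 4.

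The pools carry numbers from 1 to 4 in both groups, and the group difference of most collagens was largest between the pools numbered 4. Steatosis pool 4 was above initial pool 4 for 22 of the 23 tested collagens (95.7%), against 81.8% of all tested genes. Initial pool 4 was the lowest of all 8 for 17 collagens (73.9%), against 44.7%. That pool also had the highest sum of hepatocyte markers, 87050 FPKM, of which ALB alone gave 71003 FPKM. Among the initial pools, ALB, APOA1 and CYP2E1 were highest there, while TTR, SERPINA1 and HNF4A were not. HNF4A, at 48.9 FPKM, was the lowest of the initial pools there. The part of such library-wide differences in the collagen values was not tested. For COL1A1 the log2 ratio of steatosis to initial was 0.54, -0.72, 0.20 and 3.21 in pools 1 to 4. For COL3A1 it was 0.74, 0.28, 0.33 and 2.51, and for COL4A2 0.30, 0.47, 0.46 and 2.16. For COL18A1, by contrast, it was 0.80, 0.42, 0.51 and 0.82, of similar size in every pool.

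Without the pools numbered 4 in both groups, an alternative added after the values were seen, the median collagen fold change was 0.26, against 0.19 for all genes. COL1A1 then had a log2 fold change of 0.01 (adjusted p = 0.992), COL3A1 of 0.45 (adjusted p = 0.206) and COL5A1 of 0.66 (adjusted p = 0.0503). COL14A1 had 0.49 (adjusted p = 0.0478), COL16A1 0.84 (adjusted p = 0.0704) and COL18A1 0.58 (adjusted p = 0.0239). Only COL14A1 and COL18A1 kept an adjusted p under 0.05 in that fit of 12883 genes, of which 16.2% were higher at the same limit.

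Genes that act on collagen chains were compared in the fit of all 8 pools. Of 32 genes of collagen processing and crosslinking, 27 were tested, 3 were called higher (6.01% of all tested genes were) and 0 lower. At an adjusted p under 0.05, 12 were higher and 1 lower, against 26.7% and 2.28% of all tested genes, and the median log2 fold change was 0.54. SERPINH1 (HSP47), the collagen-specific chaperone, was at 12, 13.6, 14.3 and 12.3 FPKM in initial pools 1 to 4 and at 34.2, 18.2, 25.5 and 35.3 FPKM in steatosis pools 1 to 4. Its initial pools were close together and all lay below steatosis, and it rose by 1.07 on the log2 scale (SE 0.19, adjusted p = 0.00348).

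CRTAP, a subunit of the prolyl 3-hydroxylase complex, lay between 0.60 and 1.02 FPKM in the initial pools and between 1.79 and 2.08 FPKM in steatosis, and it rose by 1.19 on the log2 scale (SE 0.18, adjusted p = 0.00126). LOXL1, a lysyl oxidase that crosslinks elastic fibres and collagen, lay between 0.38 and 0.64 FPKM in the initial pools and between 0.88 and 2.78 FPKM in steatosis, and it rose by 1.59 (SE 0.33, adjusted p = 0.00707), a call lost without initial pool 1 (adjusted p = 0.0149). The 2 most abundant members are general folding enzymes that also act on collagen. P4HB, protein disulfide isomerase and subunit of prolyl 4-hydroxylase, measured 474 to 605 FPKM in the initial state and 415 to 462 FPKM in steatosis (-0.35, SE 0.10, adjusted p = 0.0306), and PPIB, a prolyl isomerase, had a fold change of 0.03 (SE 0.10, adjusted p = 0.853). The count of 3 fell to 1 without initial pool 4, steatosis pool 1 or steatosis pool 4, and to 0 under median ratio scaling, where SERPINH1 had 0.79 (adjusted p = 0.0196).

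Of 10 collagen receptor genes in the table, 8 were tested, 2 were called higher and 0 lower, against 6.01% and 0.334% of all tested genes, with a median of 0.56. MRC2 (Endo180), an endocytic receptor that takes up collagen fragments, was at 0.50, 0.59, 0.49 and 0.34 FPKM in initial pools 1 to 4 and at 1.85, 2.02, 1.88 and 3.93 FPKM in steatosis pools 1 to 4. Every steatosis pool was far above every initial pool, and the gene rose by 2.07 on the log2 scale (SE 0.26, adjusted p = 0.000523). OSCAR, a collagen receptor of myeloid cells, was listed at 0 in initial pools 1 and 3, at 0.16 and 0.07 FPKM in pools 2 and 4, and between 0.34 and 0.61 FPKM in steatosis (1.88, SE 0.36, adjusted p = 0.00455). It was the only gene of the 4 lists that reached the filter of 0.3 FPKM in steatosis pools alone, so it could be tested only because it was higher there, and its call counts as a description. The integrin subunits ITGB1 and ITGA1, the most abundant receptors, had 0.27 (adjusted p = 0.153) and 0.17 (adjusted p = 0.367). Macrophage markers (7 of 7 in the table, none at 0) summed to 75.5 to 104 FPKM in the initial state and 619 to 1290 FPKM in steatosis. Of these sums, GPNMB alone gave 17.6 to 32.6 FPKM in the initial state and 405 to 1096 FPKM in steatosis. CD163, CSF1R and ADGRE1 had log2 fold changes of 0.32, 0.62 and 0.83. Of the 7 macrophage markers, 4 (GPNMB, CD68, MARCO and TREM2) were called higher, against 6.01% of all tested genes. TREM2 reached 0.3 FPKM in steatosis pools alone, so its call counts as a description. The part of macrophages in the receptor values was not tested. OSCAR lost its call with a pseudocount of 1 or under median ratio scaling (adjusted p = 0.0116), and the count was 1 without initial pool 3. Without any single steatosis pool it no longer reached the filter, so 7 receptors were tested and 1 was called.

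Partners of collagen in basement membranes are laminins, nidogens and large proteoglycans. Of 15 such genes 12 were tested, 3 were called higher and 0 lower, against 6.01% and 0.334% of all tested genes, and the median was 0.69. LAMA3, the laminin chain of epithelial anchorage, was at 5.12, 2.81, 2.67 and 1.96 FPKM in initial pools 1 to 4 and at 14.2, 9.34, 7.48 and 11.9 FPKM in steatosis pools 1 to 4. The groups were apart and initial pool 1 was the highest of its group, and the gene rose by 1.78 on the log2 scale (SE 0.28, adjusted p = 0.00179). LAMA5, a chain of mature vessel and epithelial laminins, rose by 1.24 (SE 0.22, adjusted p = 0.00316).

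NID2, which links laminin to type IV collagen, passed at 1.14 (SE 0.25, adjusted p = 0.00948), but not with the pool number as a block (adjusted p = 0.0255) or without initial pool 1 (adjusted p = 0.0125). NID1, its far more abundant relative at 33.7 to 65.5 FPKM in the initial pools, had -0.01 (SE 0.19, adjusted p = 0.967). LAMB1 had 0.51 (SE 0.11, adjusted p = 0.00668), past the adjusted p limit only. The count of 3 fell to 1 without steatosis pool 2, 3 or 4 and under median ratio scaling, where LAMA3 had 1.52 (adjusted p = 0.00531).

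Of 15 proteins that bind fibrils, all tested, 1 was called higher and 0 lower, with a median of 0.58. As 6.01% of all tested genes were called higher, this count is near the background and no result about the list. BGN (biglycan), a small proteoglycan on collagen fibrils, was at 49.5, 53.5, 49.2 and 34.7 FPKM in initial pools 1 to 4 and at 114, 83.0, 80.9 and 141 FPKM in steatosis pools 1 to 4. The groups did not overlap and steatosis pools 1 and 4 were the highest, as for type I collagen, and BGN rose by 1.14 (SE 0.20, adjusted p = 0.00275). FN1 (fibronectin), of which hepatocytes make the plasma form, measured 288 to 581 FPKM in the initial state and 484 to 699 FPKM in steatosis (0.52, SE 0.21, adjusted p = 0.0913). The lowest fold change of the list was that of LUM (lumican), at -1.67 (SE 0.52, adjusted p = 0.0361), named after its value was seen. LUM was at 3.10, 1.43, 0.99 and 0.81 FPKM in initial pools 1 to 4 and between 0.08 and 0.81 FPKM in steatosis. Without initial pool 1 its fold change was -1.30 (SE 0.48, adjusted p = 0.0731). The count was 0 without steatosis pool 4 or under median ratio scaling (BGN 0.87, adjusted p = 0.00906), and 2 without initial pool 3, steatosis pool 2 or steatosis pool 3.

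**Figure D5:**
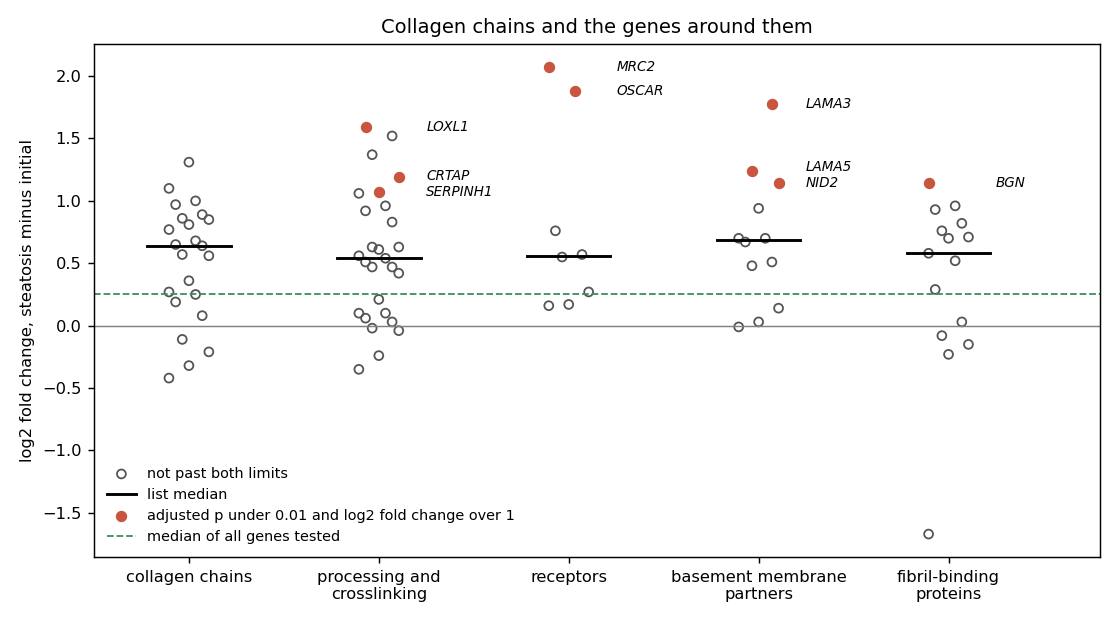
Log2 fold change (steatosis minus initial) of each tested gene among the collagen chains and the lists of genes that process, bind or accompany them; red points passed both limits, open points did not, black bars are list medians and the green line is the median of all tested genes, 0.25. None of the 23 collagen chains is red, while 3 processing genes, 2 receptors, 3 basement membrane partners and 1 fibril-binding protein are.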

How the data were processed

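The authors filtered paired-end reads of 100 bp, mapped them with HISAT2 2.0.4 to Sus scrofa 11.1, assembled transcripts with StringTie and estimated expression with Bowtie2 2.2.5 and RSEM 1.2.12. FPKM values for 17778 known genes and new transcripts were deposited by the authors as 1 table of all 8 pools, with no further scaling between libraries stated. FPKM was used as deposited; read counts were not used here, so the SD over pools stands for precision. The authors' comparisons of single pairs of pools (log2 fold changes, p-values and FDR by a Poisson method) were not used.

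With limma 3.58.1 (R 4.3.3), log2(FPKM + 0.1) was fitted on group alone, with a trend of variance on mean level, for genes that reached 0.3 FPKM in 4 or more pools, and p values were adjusted by Benjamini-Hochberg over these genes. For single collagens the mean FPKM was also compared by exact permutation (two-sided, smallest possible p 0.0286). In simulated data of 13007 genes for this comparison, 188 of 199 changed genes were found and 0 unchanged ones called. The changes put into these data were all larger than any fold change of the tested collagens. How often changes of collagen size would be found was therefore not measured. Tables were made with Python 3.11.15, numpy 2.4.6 and pandas 2.3.3, and plots with matplotlib 3.10.9. All 43 collagens matched RefSeq genes of Sscrofa11.1 by gene ID.

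The members, the other gene lists and the tests were chosen with earlier results of these data known. Named in full were the 3 collagens of highest mean level in each class and the main chains of types I, III, IV, VI, XIV, XV and XVIII. COL5A1, COL8A1, COL9A3, COL16A1 and COL17A1 were shown pool by pool after their values were seen. From each further list the called genes and the 2 of highest level were named. Equal pool numbers were read as pairs because deviations from the group means correlated at 0.163, 0.350, 0.317 and 0.247 between pools 1 to 4 of both groups, and because the study sampled the same animals in both groups. Alternatives were a pseudocount of 1, no filter and a filter of 1 FPKM, median ratio and upper quartile scaling, the pool number as a block, an adjusted p under 0.05, limma's treat, and each pool left out in turn. Leaving out pool 1 or pool 4 of both groups was added after the values were seen.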

Additional observations from a re-analysis of the deposited data

Results flagged for a closer look

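COL17A1 in initial pool 1, at 0.7 FPKM against 0 to 0.03 FPKM in the other 3 initial pools, was far from the rest of its group by Dixon's criterion. It was the only such value among 54 groups of 4 pools, examined for the 27 genes that reached 0.3 FPKM in at least 1 pool. COL17A1 reached that level through this value alone, so the flag counts as a description. Chance alone gives about 1 in 20, so 1 in 54 is no more than chance would give. Initial pool 1 is also the pool with the skeletal muscle and stomach transcripts, whose part in this value was not tested.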

How the results depend on the processing

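The 23 tested collagens gave 0 calls in every setting except 2. With the limit on adjusted p set to 0.05 there were 2, 1 fibrillar (COL5A1) and 1 other collagen (COL16A1), and without initial pool 1 there was 1, so that the fibrillar count over pools left out in turn ranged from 0 to 1. With the pool number as a replicate block, which takes the equal numbers as pairs, the collagen counts were 0 in all 3 classes. COL5A1, COL14A1, COL16A1 and COL18A1 were again the collagens with an adjusted p under 0.05, and COL3A1 had an adjusted p of 0.0711. NID2 lost its call with the block, leaving 2 basement membrane partners, and the other 8 calls of the 4 further lists were not lost. Calls of cell type markers were not refitted with the block. COL15A1, at -0.42 with all pools, ranged from -0.83 to 0.11 over pools left out in turn, the positive value coming without initial pool 1, and was 0.14 without pool 1 of both groups, and COL5A1 passed both limits at 1.32 without initial pool 1. Of 206 fold changes of 13 collagens under 16 settings, the other 203 kept their sign and were, as with all pools, not past both limits together. Limits taken singly were crossed by 36 of the 206. Of these, 6 were of COL18A1, whose adjusted p rose above 0.01 without steatosis pool 3 or 4, without pool 1 or pool 4 of both groups and under both scalings. Most of the others crossed the fold limit, among them COL1A1, COL1A2, COL3A1 and COL4A2, which passed it without initial pool 1. COL6A3, at the limit with all pools (1.0), fell under it without initial pool 4 (0.66) or steatosis pool 4 (0.79).

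Of 144 counts of the 4 lists of genes around the chains, 40 moved by over 1.5 times, against 3 of 108 for the collagen classes. With a pseudocount of 1 the processing genes, receptors and basement membrane partners each had 1 higher call. Under median ratio scaling, which moves the median of all genes from 0.25 to -0.01, these lists had 0, 1 and 1 and the fibril-binding proteins 0. Upper quartile scaling gave 0 processing genes, 1 receptor and 0 fibril-binding proteins. A filter of 1 FPKM, which tests 4 receptors, left 1. An adjusted p under 0.05 gave 5 processing genes higher and 1 fibril-binding protein (LUM) lower. The treat test called 0 in all 4 lists. Over pools left out in turn, higher calls ranged from 1 to 3 for processing genes, 1 to 2 for receptors, 1 to 3 for basement membrane partners and 0 to 2 for fibril-binding proteins. Without pool 1 of both groups these 4 lists had 1, 1, 1 and 0 calls, and without pool 4 of both groups 1, 1, 0 and 0. The cause of these shifts was not tested beyond the smaller number of pools or genes in the fits that leave some out.

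With 4 pools per group, the exact permutation test cannot go below 0.0286, and the spread of the type I chains between steatosis pools left an interval for COL1A1 from -0.44 to 2.06. Values under 0.3 FPKM rest on few fragments, whose number was not used here.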

Other observations

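The table also lists 26 loci with no gene symbol of their own that are described as collagen chains, 18 of them as type I chains or type I-like. Of these 26, 4 were tested and 0 passed both limits. The highest after the α1 chain of type VI was LOC102157778, described as an α1(I)-like chain, at 3.42, 5.11, 4.84 and 3.01 FPKM in initial pools 1 to 4 and at 7.60, 7.44, 6.22 and 5.62 FPKM in steatosis pools 1 to 4 (log2 fold change 0.72, limma adjusted p = 0.0178). LOC110260402, described as α2(I)-like, was at 2.30, 2.05, 3.01 and 1.79 FPKM in initial pools 1 to 4 and at 3.86, 3.78, 3.46 and 3.63 FPKM in steatosis pools 1 to 4 (0.69, limma adjusted p = 0.0109). Neither showed the split of steatosis pools 1 and 4 from pools 2 and 3 that COL1A1 and COL1A2 had. Whether such loci share reads with the type I genes is not given in the sources used here, so all type I values are uncertain to that extent.

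Ratios between chains of a network differed between the groups to unequal degrees. COL4A2 over COL4A1 was 0.876 ± 0.0643 in the initial pools and 1.01 ± 0.104 in steatosis (SD, n = 4 pools), and COL6A2 over COL6A3 was 4.96 ± 1.70 and 3.48 ± 0.798. COL4A4 over COL4A3 was 1.36 ± 0.261 and 1.89 ± 0.333, from genes under 1.2 FPKM that overlap. Both type IV ratios were higher in steatosis in each of the 4 numbered pairs of pools, and without initial pool 1 COL4A4 over COL4A3 was 1.23 ± 0.0196 in the initial state. COL3A1 over COL1A1 was 1.68, 1.80, 2.69 and 2.56 in the initial pools and 1.93, 3.60, 2.94 and 1.57 in the steatosis pools. No test was made on these ratios.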
